A study of Rattus norvegicus with 6 samples.

Results

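The lipase and carboxypeptidase genes of the exocrine pancreas were followed in rat islet preparations from fetal to postnatal life. The 8 genes are Pnlip, Pnliprp1, Pnliprp2, Cel, Clps, Pla2g1b, Cpa1 and Cpb1. They were taken by symbol from a table of 18625 named genes, and all 8 were found and passed the filter on low values. RNA sequencing covered 6 libraries of freshly isolated rat pancreatic islets, 3 from embryonic day 19 (fetal) and 3 from young rats (postnatal). The labels name no strain, genotype or treatment, so age is the difference they give between the groups. Postnatal replicates 1, 2 and 3 are titled as 2 weeks old but carry ages of weeks 2, 3 and 4 in a separate label, so each labelled week is 1 library. Whether the replicates were separate litters or animals is not stated, and the p-values below reflect sample-to-sample spread that could be technical.

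Pancreatic acinar cells make digestive enzymes, store them in zymogen granules and release them toward the gut when hormones and nerves call for it. Fat is digested there by lipases that cut triglycerides, helped by colipase, and by a phospholipase and a bile salt-dependent esterase with other lipid substrates. The carboxypeptidases cut single amino acids from the end of peptides that trypsin and its relatives leave behind, and are made as inactive precursors. These are known as acinar and not endocrine genes, and isolated islets usually carry some exocrine cells with them. In bulk RNA, fewer cells of a type and less RNA per cell cannot be told apart.

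Levels are given as scaled CPM, reads relative to a library size that was adjusted between libraries, which does not correct for gene length. Levels are therefore compared for 1 gene across libraries and not between genes. The libraries held between 26051449 and 37819935 reads. Markers of both compartments were present in every library. The 7 endocrine markers found (among them Ins1, Ins2, Gcg and Sst) summed to between 2254 and 5869 scaled CPM in the fetal and between 60218 and 111359 in the postnatal libraries, and 6 of the 7 were called higher by the fit described below. The 15 acinar markers, some of which are among the 8 genes, summed to between 46854 and 71223 and between 151917 and 445598. Abundant enzyme genes made up most of that sum, so it does not measure acinar cell content. The transcription factor genes Ptf1a, Rbpjl and Bhlha15 had fetal means of 257, 277 and 154 and postnatal means of 28.6, 284 and 128. Every other acinar marker found had a higher postnatal mean. Rbpjl and Bhlha15 were named after their values were seen. Fetal replicate 2 stood apart in hepatocyte markers, which summed to 7203 there against 294 and 475 in fetal replicates 1 and 3. Postnatal replicate 1 stood apart in acinar markers, at 445598 against 166654 and 151917 in postnatal replicates 2 and 3. The 8 genes were chosen with this contrast in view, so their differences between the groups are a description and carry no test.

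The 8 genes covered the range from 1.501-fold (Cpa1) to 262-fold (Pla2g1b) higher after birth by the ratio of means, and the order of their onset is described by the fetal share of the later level. As a percent of the postnatal mean, the fetal mean was 66.6% for Cpa1, 40.5% for Pnliprp1, 22.3% for Clps, 7.25% for Pnliprp2, 7.07% for Cel, 1.85% for Pnlip, 0.422% for Cpb1 and 0.382% for Pla2g1b. Cpa1, Pnliprp1 and Clps were thus early genes, already near or within an order of magnitude of their later level at embryonic day 19, while Pnlip, Cpb1 and Pla2g1b were late. Pnliprp2 and Cel lay between and did not differ from each other beyond the spread of the fetal libraries. Cpb1 and Pla2g1b likewise did not separate. In 7 of the 8 genes every postnatal library lay above every fetal library, a pattern found in 33.1% of the 12926 genes tested, and Cpa1 was the exception. Nothing is read from that count, since the genes were chosen on this contrast.

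**Figure D1:**
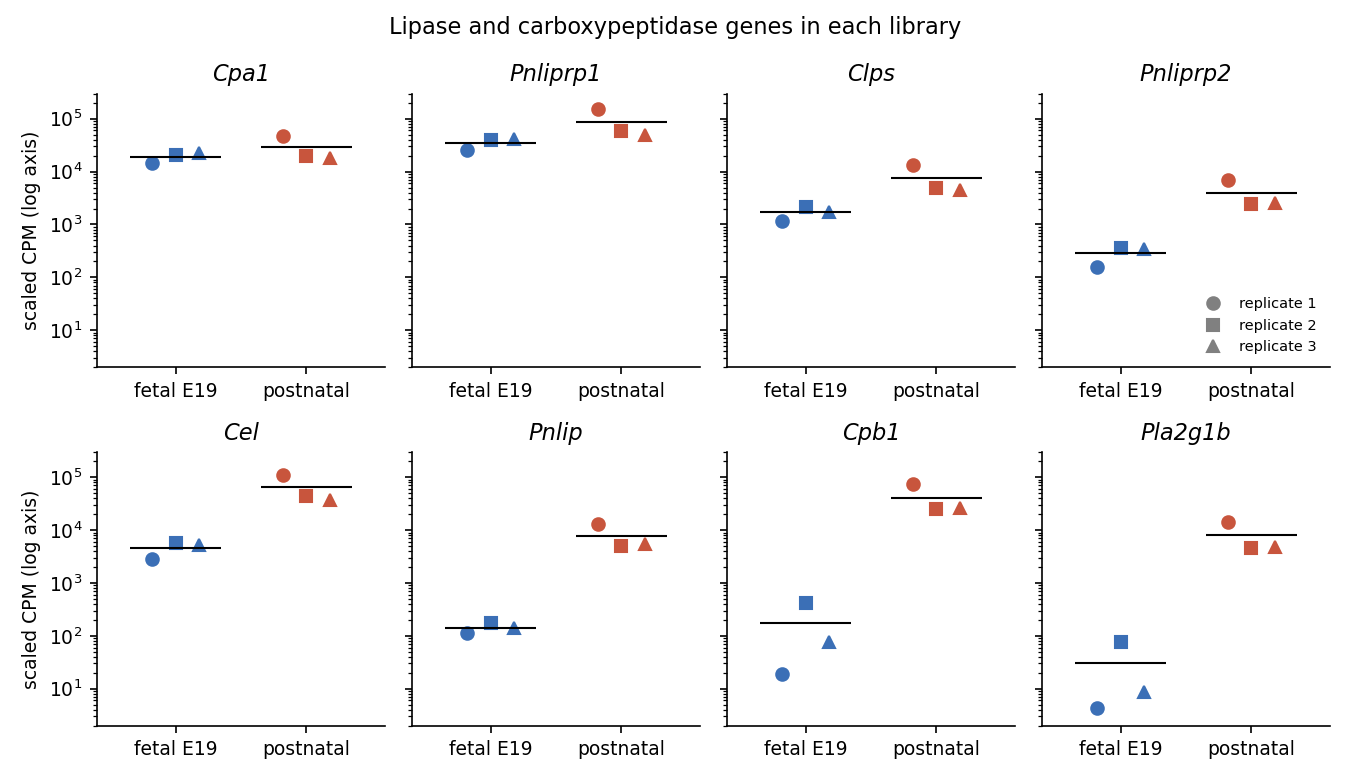
Scaled CPM (log axis) of the 8 genes in each of the 6 libraries, with 1 point per library and a line at the mean of the 3 libraries of a group. Genes are ordered by their fetal mean as a percent of their postnatal mean, from Cpa1, whose groups overlap, to Pla2g1b, with fetal values of 4.24, 77.9 and 8.54 below postnatal values of 4666 to 14315.

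Cpa1 encodes carboxypeptidase A1, which removes aromatic and branched amino acids, and is an early marker of pancreatic progenitors and acinar cells. It stood at 14486, 20177 and 22440 scaled CPM in fetal replicates 1, 2 and 3 and at 47469, 20133 and 18134 in postnatal replicates 1, 2 and 3. Only postnatal replicate 1 lay above the fetal range, and the other postnatal libraries lay inside it. The log2 fold change, on the scale of log2(scaled CPM + 1) used throughout, was 0.47 ± 0.82 (limma, moderated SE). Without postnatal replicate 1 it was 0.03, and the fetal mean was then 99.5% of the postnatal mean. A moderated SE draws on a trend over all genes tested and is not the spread of 1 gene. The residual SD (log2 spread within groups) was 0.59 for Cpa1, beside 1.59 for Pla2g1b and 1.68 for Cpb1.

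Cpb1 encodes carboxypeptidase B1, which removes lysine and arginine from the ends that trypsin makes. Its fetal values were 19.1, 427 and 76.3, and its postnatal values 73083, 24585 and 26118. The groups were far apart, but the fetal libraries also differed by 22.4-fold among themselves, against 1.55-fold for Cpa1. The log2 fold change was 8.69 ± 1.01, and 9.84 without fetal replicate 2, when the fetal mean was 0.116% of the postnatal mean. It was 7.63 without fetal replicate 1, and without postnatal replicate 1 the fetal mean was 0.686% of the postnatal mean. The ratio of Cpb1 to Cpa1 was 0.00132, 0.0211 and 0.00340 in the fetal libraries and 1.54, 1.22 and 1.44 in the postnatal ones. Every postnatal ratio was far above every fetal one, and fetal replicate 2 had the highest fetal ratio.

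Pnliprp1 encodes a relative of pancreatic lipase with little known activity on triglycerides. It stood at 25796, 39128 and 41215 in the fetal libraries and at 153655, 58538 and 49651 in the postnatal ones. All postnatal values were above the fetal ones, by a small margin outside postnatal replicate 1. The log2 fold change was 1.14 ± 1.33, and 0.64 without postnatal replicate 1, when the fetal mean was 65.4% of the postnatal mean. The moderated SE of so abundant a gene depended on the fitted trend, at 0.52 with a robust trend, 0.89 with the stricter filter and 3.14 with the looser one.

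Pnliprp2 encodes a second relative, a lipase that also takes galactolipids and phospholipids and is known from suckling animals. Its values were 157, 353 and 342 before birth and 6786, 2461 and 2504 after it, a log2 fold change of 3.70 ± 0.47. Fetal replicate 1 was lowest and postnatal replicate 1 highest, with a wide gap between the groups.

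Pnlip encodes pancreatic triglyceride lipase, the main fat-digesting enzyme of the adult gut. Its fetal values were close together at 114, 177 and 139, and its postnatal values were 12853, 4935 and 5495. The fetal libraries spanned 1.55-fold, as narrow as for Cpa1, and the log2 fold change was 5.63 ± 0.37. Pnlip, Pnliprp1 and Pnliprp2 follow one another in that order in the rat assembly GRCr8, with no other protein-coding gene listed between them. These neighbours had fetal means of 1.85%, 40.5% and 7.25% of their postnatal means.

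Clps encodes colipase, the cofactor that anchors pancreatic lipase to fat droplets in the presence of bile salts. It stood at 1147, 2178 and 1756 in the fetal and 13481, 4863 and 4430 in the postnatal libraries, a log2 fold change of 2.02 ± 0.49. Without postnatal replicate 1 the fetal mean was 36.5% of the postnatal mean. The cofactor and its enzyme did not keep pace. The ratio of Clps to Pnlip was 10.03, 12.3 and 12.6 in the fetal libraries and 1.05, 0.985 and 0.806 in the postnatal libraries. That ratio was similar within each group and separated the groups by about an order of magnitude.

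Cel encodes carboxyl ester lipase, the bile salt-dependent esterase of pancreatic juice and milk. It stood at 2840, 5662 and 5135 in the fetal and 112321, 43312 and 37277 in the postnatal libraries, a log2 fold change of 3.70 ± 0.73. Its profile was the one most like that of Pnliprp2. The ratio of Pnliprp2 to Cel was 0.0553, 0.0623 and 0.0666 before birth and 0.0604, 0.0568 and 0.0672 after it. The ratio overlapped between the groups while each gene was about 14-fold higher after birth (13.8-fold for Pnliprp2 and 14.1-fold for Cel, ratio of means). Without postnatal replicate 1 the fetal means were 11.4% (Pnliprp2) and 11.3% (Cel) of the postnatal means.

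Pla2g1b encodes the pancreatic phospholipase A2, secreted as a precursor that trypsin activates. Its fetal values were 4.24, 77.9 and 8.54, resting on 138, 3220 and 277 reads, and its postnatal values were 14315, 4666 and 4783. Fetal replicate 2 was 12.2-fold above the mean of the other fetal libraries, beside 8.95-fold for Cpb1 and at most 1.501-fold for the other 6 genes. The log2 fold change was 8.76 ± 0.95, and 9.92 without fetal replicate 2, when the fetal mean was 0.0806% of the postnatal mean. It was 7.96 without fetal replicate 1, and without postnatal replicate 1 the fetal mean was 0.640% of the postnatal mean. The hepatocyte markers were high in the same library (7203 against 294 and 475), whereas the acinar markers were not far above those of fetal replicate 3 (71223 against 68337). The part of these markers in the values of Pla2g1b and Cpb1 was not tested. The ratio of Cpb1 to Pla2g1b was 4.50, 5.48 and 8.94 in the fetal and 5.11, 5.27 and 5.46 in the postnatal libraries, so both genes were high and low in the same libraries.

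**Figure D2:**
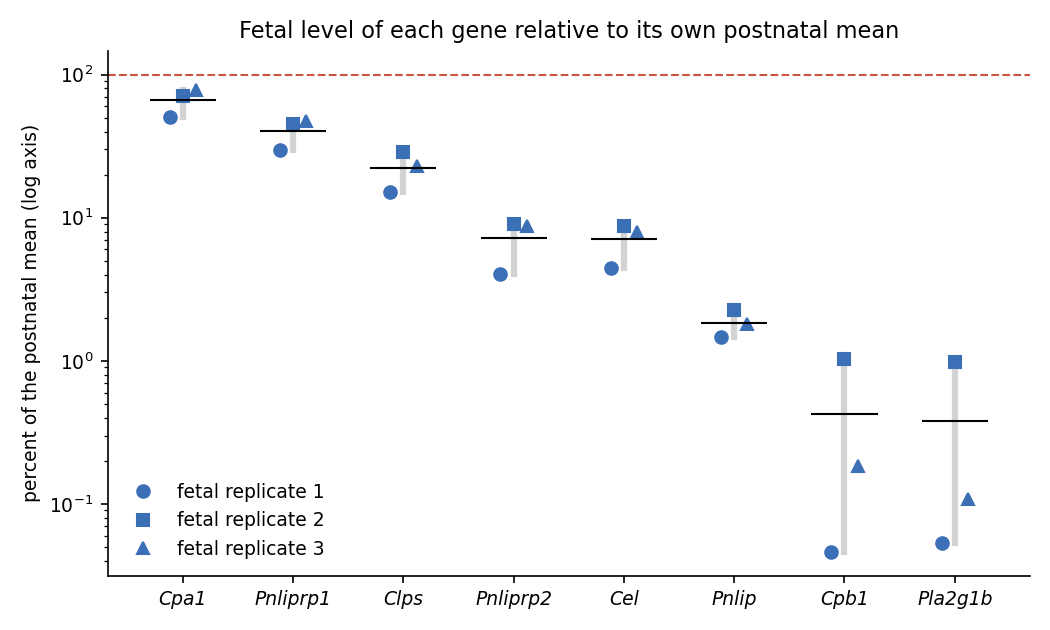
Level of each gene in the 3 fetal libraries as a percent of its own postnatal mean (log axis), with a line at the fetal mean, a grey bar over the fetal range and a dashed line at 100%. The fetal means descend from 66.6% for Cpa1 to 0.382% for Pla2g1b, and Cpb1 and Pla2g1b show the widest spread, with fetal replicate 2 highest.

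Within the postnatal libraries the 8 genes kept nearly fixed proportions. Postnatal replicate 1 exceeded the mean of the other postnatal libraries by between 2.46-fold (Pnlip) and 3.03-fold (Pla2g1b) in all 8. Of the 28 ratios that the 8 genes form with one another, the largest spread among the postnatal libraries was 1.32-fold and the median spread 1.18-fold. Among the fetal libraries the median was 1.70-fold and the largest 16.1-fold, between Cpb1 and Cpa1. The groups overlapped in the ratios of Pnliprp2 with Cel and of Cpb1 with Pla2g1b. No count over the other ratios is read, since the genes were chosen on this contrast. Library and labelled week cannot be told apart among the postnatal libraries.

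**Figure D3:**
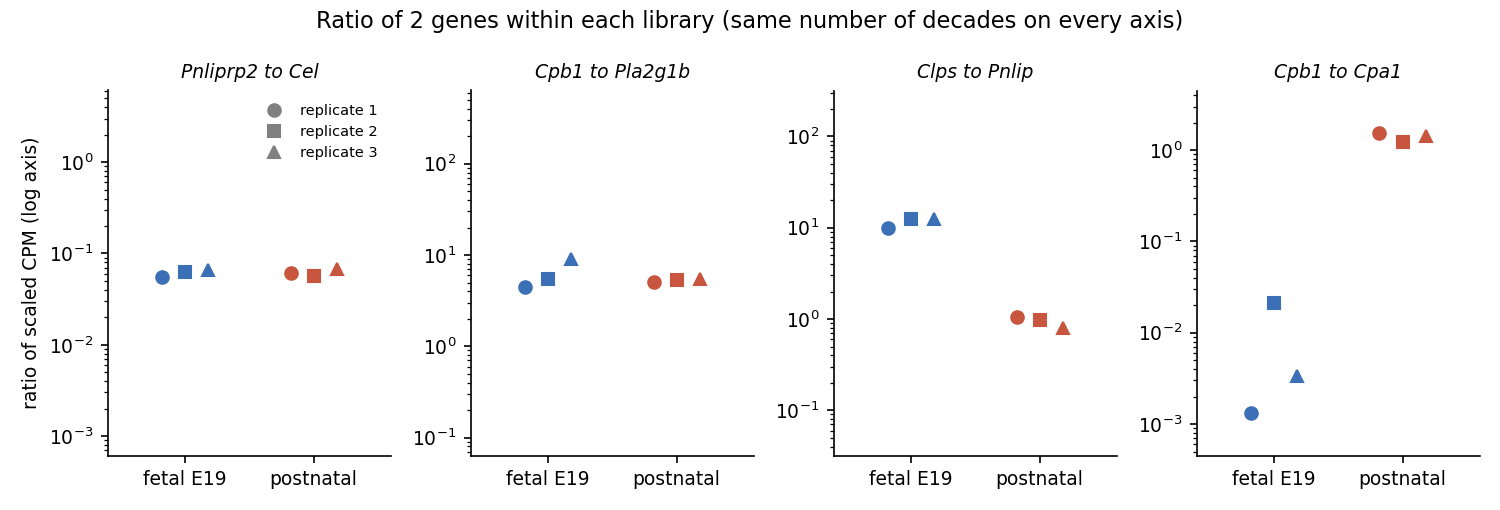
Ratio of scaled CPM (log axes spanning the same number of decades) for 4 gene pairs in each library, fetal in blue and postnatal in red. Pnliprp2 to Cel and Cpb1 to Pla2g1b overlap between the groups, Clps to Pnlip is 10.03 to 12.6 before and 0.806 to 1.05 after birth, and Cpb1 to Cpa1 is 0.0211 or less before and at least 1.22 after.

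Shares of reads gave a view that does not depend on the scaling between libraries. Together the 8 genes accounted for 6.85% ± 1.10 of all reads before birth and 20.3% ± 7.91 after birth (mean ± SD, n = 3). Against the summed reads of 21 other acinar secretory products, the 8 together stood at a ratio of 1.55 ± 0.128 before and 1.35 ± 0.0320 after birth. Within the 8, the reads were redistributed. Cpa1 took 31.2% ± 1.49 of their reads before and 11.8% ± 0.769 after birth, and Pnliprp1 took 57.7% ± 0.309 and 34.9% ± 1.26. Cel went from 7.30% ± 0.968 to 25.8% ± 0.687 and Cpb1 from 0.259% ± 0.320 to 16.5% ± 1.32. Clps held a nearly constant share, 2.75% ± 0.392 and 3.02% ± 0.0735. Pnlip (0.237% ± 0.0357 and 3.23% ± 0.413), Pla2g1b (0.0453% ± 0.0598 and 3.13% ± 0.238) and Pnliprp2 (0.450% ± 0.0866 and 1.59% ± 0.0932) took larger shares after birth. Wilson 95% intervals of single-library shares reached at most 0.0165 percentage points and cover counting error only.

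RefSeq promoter windows, from 250 bases before to 50 bases after the annotated start on GRCr8, were found for 7 of the 8 genes. Those of the earliest pair, Cpa1 and Pnliprp1, and of the latest 3, Pnlip, Pla2g1b and Cpb1, are shown because they carry the contrast in onset. Each is written 5′ to 3′ on the gene's strand, and capitals mark TATAAA and GATAAG on either strand, which do not overlap in these windows.
Cpa1, GRCr8 chr4:60224551-60224850, plus strand: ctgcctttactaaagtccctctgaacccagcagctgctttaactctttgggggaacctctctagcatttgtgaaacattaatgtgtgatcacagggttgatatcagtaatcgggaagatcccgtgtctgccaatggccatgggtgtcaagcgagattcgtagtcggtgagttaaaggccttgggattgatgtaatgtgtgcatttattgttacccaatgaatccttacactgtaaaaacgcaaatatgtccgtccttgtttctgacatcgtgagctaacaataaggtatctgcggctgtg
Pnliprp1, GRCr8 chr1:267853777-267854076, plus strand: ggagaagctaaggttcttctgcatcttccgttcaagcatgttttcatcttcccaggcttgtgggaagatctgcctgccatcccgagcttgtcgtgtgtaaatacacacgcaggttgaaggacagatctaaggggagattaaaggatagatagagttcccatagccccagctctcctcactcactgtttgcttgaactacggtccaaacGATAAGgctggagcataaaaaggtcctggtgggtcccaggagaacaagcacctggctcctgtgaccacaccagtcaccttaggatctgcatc
Pnlip, GRCr8 chr1:267784360-267784659, plus strand: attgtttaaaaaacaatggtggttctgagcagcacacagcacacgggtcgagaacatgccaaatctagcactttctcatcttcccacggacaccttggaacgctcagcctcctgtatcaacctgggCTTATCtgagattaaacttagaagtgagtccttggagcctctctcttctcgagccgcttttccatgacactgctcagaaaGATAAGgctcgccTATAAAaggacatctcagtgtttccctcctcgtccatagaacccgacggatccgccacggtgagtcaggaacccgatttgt
Pla2g1b, GRCr8 chr12:46812604-46812903, minus strand: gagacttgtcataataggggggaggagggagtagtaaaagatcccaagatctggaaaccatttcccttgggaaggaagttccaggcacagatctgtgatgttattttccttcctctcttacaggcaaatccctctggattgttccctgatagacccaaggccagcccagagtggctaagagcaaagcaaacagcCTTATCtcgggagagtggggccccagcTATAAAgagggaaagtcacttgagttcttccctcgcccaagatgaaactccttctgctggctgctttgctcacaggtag
Cpb1, GRCr8 chr2:104714613-104714912, minus strand: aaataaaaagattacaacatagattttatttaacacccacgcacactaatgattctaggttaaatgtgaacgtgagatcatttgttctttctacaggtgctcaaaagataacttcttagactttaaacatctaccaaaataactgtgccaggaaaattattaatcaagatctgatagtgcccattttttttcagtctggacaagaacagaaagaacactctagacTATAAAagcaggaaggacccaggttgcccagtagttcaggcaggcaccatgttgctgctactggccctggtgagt

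The letters TATAAA, the core of a TATA box, begin 31, 29 and 25 bases before the annotated start in Pnlip, Pla2g1b and Cpb1. These are the 3 genes with the lowest fetal percent, and the other 4 windows hold no exact TATAAA on either strand. The search took exact letters only. CATAAA, which differs from TATAAA in the first letter, begins between 35 and 20 bases before the start in Pnliprp1 and Cel. The letters therefore do not separate late genes from the others by the presence of a TATA-like stretch. Of 33469 RefSeq windows of the same length, 14.2% hold TATAAA on either strand, and 1.18% hold it on the gene's strand beginning 35 to 20 bases before the start. GATAAG, which GATA factors can bind, is present in Pnlip, Pnliprp1 and Pla2g1b, against 7.05% of all windows, and so spans early and late genes. The E-box CACCTG is in Pnliprp1, Cpb1 and Cel (18.8% of all windows), and TTTCCC, letters of the site bound by the acinar factor complex PTF1, in Pnlip, Cel and Pla2g1b (25.1%). The motifs were picked with the onset order known, each match is a description of letters, and no binding was measured.

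By the root mean square distance between mean-centred log2(scaled CPM + 1) profiles over the 6 libraries, the 3 other genes most like each of the 8 were found. Prss3b, a trypsinogen, was nearest to both Pla2g1b (0.21 log2 units) and Cpb1 (0.30). The next for Pla2g1b were LOC312273 (0.64) and Prss1 (0.65), and for Cpb1 Prss1 (0.57) and LOC312273 (0.73), which were clearly farther. Prss3b stood at 12.2, 189 and 26.5 in the fetal libraries, with fetal replicate 2 highest as for Cpb1 and Pla2g1b. Clps was nearest to the elastase gene Cela3b (0.12), then Rnase6 and Cd300lf, and Pnlip to Spink1l (0.21), the kallikrein gene Klk1 (0.23) and LOC100911558. Pnliprp1 was nearest to the zinc transporter gene Slc39a5 (0.09), then the peroxiredoxin gene Prdx4 (0.15) and Agtr1b, and Cpa1 to LOC684270 (0.10), Mesp2 (0.13) and the pancreatic aquaporin gene Aqp12a (0.14). Cel and Pnliprp2 shared the same nearest genes, Hsd17b13, Kcne1 and Clca2, at 0.21 to 0.32 log2 units. Several of the nearest genes were low, where adding 1 before the log compresses changes. Mesp2 lay between 1.01 and 4.10 scaled CPM in the 6 libraries, and Hsd17b13 between 1.01 and 4.38 in the fetal ones. For such genes a small distance need not mean an equal fold change. Trypsinogen genes are a family of related sequences. Whether the counting split reads between them was not tested, so the values of Prss1 and Prss3b are uncertain.

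Other genes of the same families and of the acinar cell were tested in a fit over the whole table. Of the 12926 genes tested, limma called 63.1% at a Benjamini-Hochberg adjusted p under 0.05, 30.0% higher and 33.1% lower after birth, with a median log2 fold change of -0.03. The list counts below are to be read against these shares. Higher genes made up 47.5% of the calls, 61.2% when libraries were rescaled without the 20 highest genes and 25.9% on plain totals, which moved the median of all genes to 0.20 and -0.36.

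Most other acinar secretory products rose. Of 21 tested, 18 rose, 1 fell and 2 did not pass, with a median log2 fold change of 5.05 against -0.03 over all genes. The largest rises were those of Prss3b (8.43 ± 0.90; limma adjusted p = 1.90e-04) and Prss1 (8.01 ± 0.79; adjusted p = 1.39e-04). Both are trypsinogen genes, whose values are uncertain as stated above. Dnase1, a secreted nuclease, fell by 0.83 ± 0.18 on the log2 scale. Ctrb1 (25276 ± 5751 and 51022 ± 33712) and Serpini2 (1291 ± 414 and 1183 ± 769 scaled CPM before and after birth) did not pass. Try5, among the genes that rose, passed the filter only through the postnatal libraries, where it is high. Ctrb1, Serpini2 and Try5 were named after their values were seen. The acinar markers, mostly enzyme genes and partly the same genes as this list, summed to between 46854 and 71223 before birth. They summed to between 151917 and 445598 after birth, and their part in these rises was not tested.

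Lipases and lipid hydrolases outside the acinar list went both ways. Of 19 tested, 10 rose, 2 fell and 7 did not pass (median 0.51), and another 9 were below the filter. On plain totals 5 rose and the median was 0.19. Leaving out fetal replicate 1, 2 or 3 in turn left 1 that fell. That outcome was fixed by the filter, which Lipg passed only through the 3 fetal libraries, so Lipg was then not tested. Lpl, encoding the lipoprotein lipase of capillary walls, rose from 30.9 ± 18.3 to 258 ± 40.2 scaled CPM (3.15 ± 0.34; limma adjusted p = 2.08e-04), and Lipe, the hormone-sensitive lipase of adipocytes and beta cells, from 4.50 ± 0.766 to 26.9 ± 8.51 (2.30 ± 0.25; adjusted p = 1.95e-04). Lmf1, encoding a maturation factor of lipoprotein lipase, fell by 0.74 ± 0.17, and Lipg, the endothelial lipase, by 1.19 ± 0.15. Lipg was named after its values were seen. The 8 adipocyte markers, which include Lipe, summed to between 14.1 and 29.7 before and between 99.8 and 340 after birth, with 5 of 5 tested higher, and Lep at 0 in the fetal libraries. Of those tested, Adipoq, Plin4 and Cfd passed the filter only through the postnatal libraries. Their part in these changes was not tested.

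Among other phospholipases A2 and their receptor, 5 of 10 tested rose and 2 fell (median 0.56), while 10 were below the filter. Pla2g2c and Pla2g5, among those that rose, passed the filter only through the postnatal libraries, where they are high. The higher count and the median include both, and neither was tested when a single postnatal library was left out. The higher count was 3 on plain totals, 2 with the stricter filter, 9 with the looser one and 2 without postnatal replicate 2. The lower count was 1 when any single library except postnatal replicate 3 was left out. Pla2g2a, a secreted phospholipase of inflammation and gut defence, rose from 0.754 ± 0.778 to 17.2 ± 10.2 scaled CPM (3.28 ± 0.49; limma adjusted p = 8.02e-04), and the receptor gene Pla2r1 by 0.77 ± 0.21. Pla2g4b, a cytosolic form, fell by 0.62 ± 0.13 and Plaat3, a phospholipase and acyltransferase of adipose tissue, by 0.33 ± 0.11. The Plaat3 call was lost with the replicate number as a block (limma adjusted p = 0.0775) and after rescaling without the 20 highest genes (adjusted p = 0.502), and that of Pla2r1 on plain totals (adjusted p = 0.200).

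Of 23 other carboxypeptidases and inhibitors tested, 14 rose, 3 fell and 6 did not pass (median 0.95). Without fetal replicate 2 or without fetal replicate 3, 1 fell. Cpz, a secreted carboxypeptidase of extracellular matrix, rose from 0.977 ± 0.375 to 19.3 ± 2.87 scaled CPM (3.37 ± 0.19; limma adjusted p = 2.06e-05). The 6 mesenchyme markers found, among them Col1a1 and Dcn, summed to between 1474 and 2220 before and between 6625 and 11661 after birth, with 6 of 6 higher, and their part in this rise was not tested. Cpa3, the mast cell carboxypeptidase, rose from 4.10 ± 2.16 to 53.6 ± 35.4 (3.17 ± 0.67; adjusted p = 0.00420), with postnatal replicate 1 lowest at 12.8 against 71.1 and 76.9 in postnatal replicates 2 and 3. That is the reverse of the 8 acinar genes, which were highest in postnatal replicate 1. Of the 8 mast cell markers tested, which include Cpa3, 5 rose and 3 fell, and the 9 found summed to between 145 and 416 before and between 103 and 249.6 after birth. Kit and Hdc, which fell, made up most of the fetal sum. Tpsab1 and Tpsb2, which rose, passed the filter only through the postnatal libraries. The mast cell protease gene Tpsab1 had 1.67, 8.40 and 10.2 scaled CPM after birth (replicates 1, 2 and 3) and Cma1 had 7.19, 48.5 and 52.5, both lowest in postnatal replicate 1 as Cpa3 was. The part of these markers in the rise of Cpa3 was not tested. Cpe, which trims prohormones in endocrine granules, rose from 138 ± 29.9 to 849 ± 289 and was chosen after its values were seen. Cpn1, a plasma carboxypeptidase subunit, fell by 0.97 ± 0.17 and the carboxypeptidase inhibitor gene Lxn by 0.52 ± 0.15, the latter call being lost after rescaling without the 20 highest genes (limma adjusted p = 0.128). The third gene that fell was Cpa5 (-1.62 ± 0.20), named after its values were seen. Cpa5 passed the filter only through the fetal libraries, so it was not tested when a single fetal library was left out.

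Acinar regulators also went both ways, in shares near those of all genes tested. Of 17 regulators and secretagogue receptors, 4 rose, 5 fell and 8 did not pass (median -0.04). Over all genes tested 30.0% rose and 33.1% fell, so the split is not read as a trait of this list. Ptf1a, the transcription factor that drives acinar fate and enzyme genes, stood at 243, 187 and 341 in the fetal and 43.0, 22.6 and 20.2 in the postnatal libraries and fell by 3.16 ± 0.31 (limma adjusted p = 1.35e-04). Nr5a2, a nuclear receptor that supports enzyme transcription, fell by 1.62 ± 0.33. The partner gene Rbpjl stood at 277 ± 31.7 and 284 ± 168 scaled CPM, did not pass and was named after its values were seen. The receptor genes for secretin, Sctr (2.54 ± 0.33), and for cholecystokinin, Cckar (1.08 ± 0.31), rose, but the Cckar call was lost without fetal replicate 1 (adjusted p = 0.0577) and without fetal replicate 2 (adjusted p = 0.0509). Without postnatal replicate 1, 8 genes of this list fell, and without fetal replicate 3, 3 fell. Cckbr, among the 5 that fell, passed the filter only through the fetal libraries. It was not tested when a single fetal library was left out. On plain totals 2 rose, as also when either fetal replicate 1 or fetal replicate 2 was left out.

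Of 17 genes of granule traffic and protein folding, 1 rose, 5 fell and 11 did not pass (median -0.22). Ssr2, a subunit of the translocon-associated complex, fell by 1.43 ± 0.26 and the mucin gene Muc1 by 1.34 ± 0.35. Muc1 is also among the 9 duct markers found, of which 4 fell and 0 rose, and which summed to between 1690 and 1877 before and between 809 and 1221 after birth. The part of duct markers in the fall of Muc1 was not tested. The vesicle SNARE gene Vamp2, which endocrine cells also use, rose by 0.91 ± 0.15, a call lost on plain totals (limma adjusted p = 0.0719). This list depended on the scaling, with 6 higher and 4 lower after rescaling without the 20 highest genes and 0 higher and 10 lower on plain totals, and 9 fell without postnatal replicate 1. Without fetal replicate 3, 3 fell, and without postnatal replicate 3, 2 rose. The 7 endocrine markers, at 2254 to 5869 before and 60218 to 111359 after birth, moved in the same libraries, and their part was not tested.

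**Figure D4:**
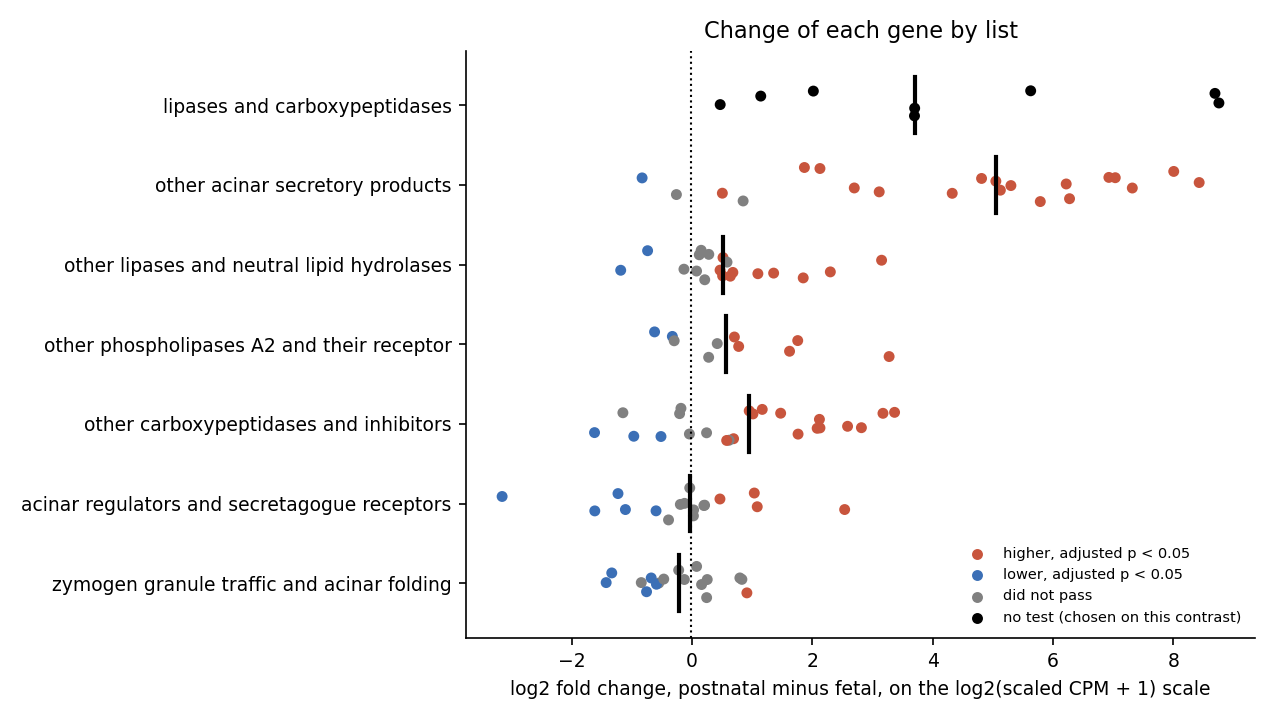
Log2 fold change (postnatal minus fetal) of each tested gene, by list, with a thick line at the list's median and a dotted line at the median of all genes (-0.03). Red and blue points passed limma at an adjusted p under 0.05, grey points did not, and the 8 lipase and carboxypeptidase genes (black) carry no test. The other acinar products have a median of 5.05, while the regulators (-0.04) and granule genes (-0.22) lie near the median of all genes.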

How the data were processed

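Total RNA of isolated islets was sequenced from stranded libraries depleted of ribosomal RNA, per the labels' protocols. TopHat2 2.0.8b and edgeR 3.30.3 are named without a role, per the submitters' processing notes. For the build, annotation and counter, the sources used here give nothing. The authors deposited a normalized signal per gene with no unit in the header. Every deposited value (100%) is a whole number of reads times 1 constant per library, within 0.001 reads, and the signal is called scaled CPM. A nameless row, with between 1 and 9 reads in each library (no more than 3.19e-05% of the total), was left out of tests.

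The test was limma 3.58.1 (R 4.3.3) on log2(value + 1), with a trended prior and group as the only term, two-sided and adjusted by Benjamini-Hochberg. It ran over the 12926 genes that reached 1 in 3 or more libraries. A low gene can pass this filter only through the group where it is high, so calls of such genes are not independent of the filter. Fold changes on this scale understate the change of low genes. No library duplicated another of its group, since read counts differed beyond sampling noise in every pair (lowest chi-square 45.6 per degree of freedom). Of 239 entries in the other gene lists, 210 were matched by symbol or, through a RefSeq table of GRCr8, by an older one. Named genes were the 8 members, up to 2 called genes per direction and list with the largest change, provided the higher group averaged 5 or more, and the 3 nearest profiles of each member. No coding lengths were used, so the planned order of levels per length was not computed. Members and lists were chosen with earlier results of these data known. Alternatives were pseudocounts, filters, scalings, a robust trend, a replicate block, the labelled week as a covariate, libraries left out, and edgeR 4.0.16 and DESeq2 1.42.0 on the recovered reads. The values of 1 listed gene are not reported here.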

Additional observations from a re-analysis of the deposited data

How the results depend on the processing

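All 8 lipase and carboxypeptidase genes kept a higher postnatal mean under the 19 alternatives run. All 152 of their alternative log2 fold changes lay within 1 residual SD of the reported value, as did the 80 alternative fetal percents within their own SD. Nothing is read from these counts, since many of the alternatives could not fail. The filters, robust trend, replicate block and labelled week leave these fold changes unchanged by construction. Leaving out 1 of 3 libraries cannot move a group mean by as much as 1 residual SD. Cpa1 ranged from 0.03 to 0.72 in log2 fold change. The order of fetal percents was unchanged under 9 of 10 alternatives, and without fetal replicate 3 Cel and Pnliprp2 changed places. Replicate numbers gave no pairing (correlations of deviations between same-numbered libraries of -0.21, 0.10 and -0.25). With the replicate block, 3563 genes were higher and 3863 lower, and 1 phospholipase gene was lower instead of 2. On recovered reads edgeR called 4060 higher and 4068 lower, and DESeq2 4206 and 4160. On plain totals 1780 genes of the whole table were higher (3874 in the reported fit).

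Small list counts moved most. Part of these moves came from the filter, which still asked for 3 libraries when a single library was left out. Without any single fetal library 18 other lipases were tested instead of 19. Without any single postnatal library 8 phospholipases were tested instead of 10. The cause of the other moves was not tested. Plain totals gave 5 higher other lipases, 3 higher phospholipases, 2 higher regulators, and among granule genes 10 lower and 0 higher by limma (1 at an unadjusted p under 0.05; edgeR on recovered reads called 3 and DESeq2 4). Rescaling without the 20 highest genes gave 1 lower phospholipase, 3 lower regulators and 6 higher granule genes. The looser filter gave 9 higher phospholipases, and the stricter one 2, with 1 lower lipase. The labelled week as a covariate gave 3 higher granule genes, and DESeq2 1 lower phospholipase. Without fetal replicate 2 and postnatal replicate 1 together, 1 phospholipase, 8 regulators and 8 granule genes were lower. Leaving out single libraries gave 2863 to 3600 higher and 3518 to 4454 lower genes in the whole table, 15 to 17 higher and 1 to 2 lower other acinar products, 8 to 12 and 1 to 2 other lipases, 2 to 5 and 1 to 2 phospholipases, 13 to 15 and 1 to 4 carboxypeptidases, 2 to 4 and 3 to 8 regulators, and 1 to 2 and 3 to 9 granule genes. The fewest reads of any of the 8 genes in a library were 138, for Pla2g1b in fetal replicate 1. The fetal values of Pla2g1b differed by 18.4-fold between libraries, which is far beyond the counting error of so many reads.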
